A study of Mus musculus with 6 samples.

Results

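Enteroendocrine cells are scattered hormone-secreting cells of the intestinal lining, and the 10 genes described here encode 2 of their granule proteins (Chga, Chgb) and 8 of their peptide hormone precursors (Ghrl, Sct, Cck, Gip, Gcg, Nts, Sst, Tac1). The genes were chosen by function, as a set of hormones and granins, with earlier results of these data known. Their counts beside all genes are therefore descriptions and not independent tests. They were found on the array by the platform's gene symbols. All 10 genes were measured, by 15 of 45281 probes, among 19057 genes with a probe of their own. Where a gene had several probes, the probe with the highest mean over the 6 arrays gave its value.

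The arrays came from organoids of the mouse small intestine, cultures of epithelium that form buds resembling crypts when grown in gel. There were 3 control samples from Villin-Cre mice and 3 knockout samples from Villin-Cre mice with both Snai1 alleles floxed (Villin-Cre, Snai1fl/fl). Both groups therefore carry Cre under the Villin promoter, which acts in intestinal epithelial cells, and both received 0.5 µM tamoxifen for 24 hours before harvest. Neither passage, donor animal nor the meaning of the shared replicate numbers 1 to 3 is given in the labels, so the spread between arrays of a group may be technical.

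Enteroendocrine cells arise from secretory progenitors that express the transcription factor gene Neurog3, and different subtypes make different hormones. Granins help to form the dense-core granules in which these peptides are stored, and the peptides are cut out of larger precursors inside the granules. Released hormones then act on the pancreas, gallbladder, stomach, vagal nerves and brain. Snai1, the gene deleted here, encodes a repressor that binds E-box sequences in DNA.

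The promoter sequences of the members are shown because these genes share a regulated secretory programme and because Snai1 acts through a short E-box. All 10 had an entry in the RefSeq promoter table (GRCm38.p6), and Ghrl had 4 start sites. In the 250 bases before a start site, the E-box CAGGTG, which reads CACCTG on the other strand, was present for 4 members, Chga, Chgb, Ghrl and Cck, against 19.4% of 27025 genes. The full cAMP response element (CRE), TGACGTCA, was present for Chgb and Sst, against 1.77% of genes. Its shorter core TGACG, which reads CGTCA on the other strand and lies within the full element, was present for 6 members, Chga, Chgb, Cck, Nts, Sst and Tac1, against 19.8% of genes. Both strands were searched, and a match is only a match of letters. The windows printed here are those of the 4 members with the E-box (for Ghrl, the start site farthest upstream), of Sst for its full CRE, and of Gcg, which had none of these motifs. They lie at chr12:102554691-102554940 (plus strand) for Chga, chr2:132781392-132781641 (plus) for Chgb, chr6:113719912-113720161 (minus) for Ghrl, chr9:121495695-121495944 (minus) for Cck, chr16:23890845-23891094 (minus) for Sst and chr2:62483654-62483903 (minus) for Gcg. Each is written from its 5′ end to the last base before the start site, with the E-box, CRE or CRE core in capitals.
Chga: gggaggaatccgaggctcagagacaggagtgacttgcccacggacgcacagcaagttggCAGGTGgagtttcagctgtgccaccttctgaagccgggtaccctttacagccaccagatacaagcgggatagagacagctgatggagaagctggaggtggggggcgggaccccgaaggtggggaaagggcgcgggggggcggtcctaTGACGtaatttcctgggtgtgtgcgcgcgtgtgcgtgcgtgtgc
Chgb: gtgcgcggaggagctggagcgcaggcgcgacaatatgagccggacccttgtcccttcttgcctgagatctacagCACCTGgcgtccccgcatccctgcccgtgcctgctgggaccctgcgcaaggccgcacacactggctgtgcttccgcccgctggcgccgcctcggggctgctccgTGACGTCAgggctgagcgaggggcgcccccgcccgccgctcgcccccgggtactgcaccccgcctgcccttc
Ghrl: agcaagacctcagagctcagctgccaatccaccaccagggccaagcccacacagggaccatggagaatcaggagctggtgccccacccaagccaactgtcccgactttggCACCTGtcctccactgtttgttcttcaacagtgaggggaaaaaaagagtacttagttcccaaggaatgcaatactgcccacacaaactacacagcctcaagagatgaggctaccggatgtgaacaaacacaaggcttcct
Cck: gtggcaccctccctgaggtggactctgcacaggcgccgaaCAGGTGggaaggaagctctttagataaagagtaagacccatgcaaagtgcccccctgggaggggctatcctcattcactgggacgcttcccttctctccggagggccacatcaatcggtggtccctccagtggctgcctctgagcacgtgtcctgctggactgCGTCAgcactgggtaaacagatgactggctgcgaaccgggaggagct
Sst: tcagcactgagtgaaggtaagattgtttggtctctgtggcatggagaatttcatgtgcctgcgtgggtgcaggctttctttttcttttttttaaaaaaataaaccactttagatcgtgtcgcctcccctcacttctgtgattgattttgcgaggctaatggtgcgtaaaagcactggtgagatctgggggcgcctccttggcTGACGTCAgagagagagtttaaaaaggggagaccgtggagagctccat
Gcg: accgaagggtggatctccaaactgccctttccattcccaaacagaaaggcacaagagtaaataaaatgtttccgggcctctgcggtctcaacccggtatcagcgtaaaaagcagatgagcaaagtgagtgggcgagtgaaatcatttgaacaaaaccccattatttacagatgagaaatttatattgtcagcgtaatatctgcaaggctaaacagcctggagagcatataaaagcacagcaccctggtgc

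The E-box began 191 bases before the start site of Chga, 176 before that of Chgb, 140 before the printed start of Ghrl and 210 before that of Cck. Another listed start of Ghrl had the E-box at both 168 and 96 bases before it. The full CRE began 72 bases before the start site of Chgb and 48 before that of Sst, and the core in Chga 44 before its start. No binding was measured in this series.

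The array scale and the samples set limits on what these genes can show. Values are on a log scale taken as base 2, running from 7.71 to 14.78 with a median of 7.874, so values near the bottom are compressed and differences of dim genes are understated. The mean of 9 members lay above 8.269, the upper quartile of all values, and that of Nts did not. The probe used for Snai1 read 7.87, 7.93 and 7.94 on control and 7.91, 7.86 and 7.96 on knockout arrays, near the median, so it does not check the labels. Of 10 markers of intestinal epithelium, 9 had means above the upper quartile, while none of 14 measured enteric neuron and glia markers, 15 mesenchyme and endothelium markers or 9 blood and immune markers did. The mean over the neuron and glia list ran from 7.86 to 7.88 on control and from 7.87 to 7.89 on knockout arrays. Enteric neurons also use Tac1, Sst and Nts in the gut wall, and their markers were near the bottom of the scale here. Of 13 enterocyte markers, 11 had means above the upper quartile. The enterocyte markers Fabp1 (means of 7.8 on control and 7.78 on knockout arrays) and Fabp2 (7.82 and 7.8) were near the bottom. A low reading of a marker therefore does not by itself show that its cell type was absent.

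No hormone or granin gene was called between knockout and control at an adjusted p under 0.05 (limma, over all 19057 genes). The count was 0 of 10 in either direction, where 0.0945% of all genes were called lower and 0.0367% higher. The lowest adjusted p among the members was 0.39, for Chga. At an unadjusted p under 0.05, 2 of 10 members were lower (Chga and Ghrl), against 3.34% of all genes, and 0 were higher, against 3.88%. For these same 2 genes the knockout values all lay below the control values, which held for 5.85% of all genes, and for no member did they all lie above, which held for 6.2%. Shares and medians over all genes, here and below, include many dim genes. Of the 19057 genes, 6969 had means above the upper quartile, against 9 of 10 members. Over the 10 members, 7 had a lower mean and 3 a higher mean in the knockout, and the median difference was -0.116 on the log2 scale, against -0.000566 over all genes. Over all genes, 50.7% had a lower mean. Of 13 enterocyte markers, 11 had a lower mean in the knockout, with a median difference of -0.202. Paneth, goblet and tuft markers had 6 lower and 8 higher means (median 0.046), and general epithelial markers 4 lower and 6 higher (median 0.009). The part of these other cell types in the hormone values was not tested. The median of the members moved to -0.013 when control replicate 3 was left out, and to -0.052, -0.074 and -0.201 when knockout replicates 1, 2 and 3 were left out in turn. In bulk organoids, fewer enteroendocrine cells and less hormone RNA per cell cannot be told apart.

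**Figure D1:**
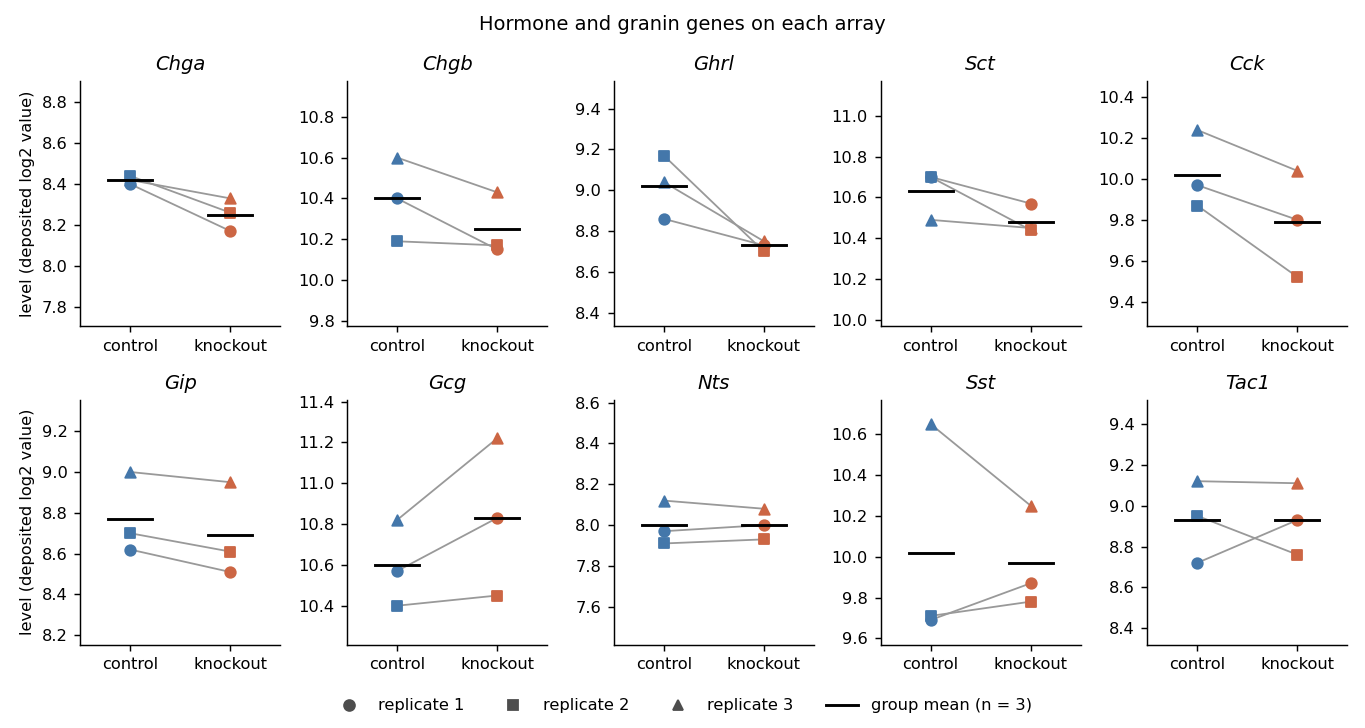
Level of each hormone and granin gene (deposited log2 value, vertical axis, every panel spanning the same range of values) on the 3 control and 3 knockout arrays. Symbols mark the replicate number, grey lines join arrays of the same number and black bars are group means; the control and knockout points are apart only for Chga and Ghrl, while the triangles of replicate 3 lie highest in both groups for 7 genes.

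The granins come first. Chga, which encodes chromogranin A, the general marker of enteroendocrine granules, read 8.40, 8.44 and 8.42 on control arrays and 8.17, 8.26 and 8.33 on knockout arrays. The highest knockout value lay below the lowest control value, and the control arrays were within a narrow range. The difference was -0.17 ± 0.043 (SE), with a 95% interval of -0.27 to -0.07 and an adjusted p of 0.39 (limma). The exact permutation p was 0.1, the smallest that 3 against 3 arrays allow.

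Chga has 2 further, dimmer probes, fitted with all 45281 probes. The probe ILMN_2716146 read 8.14, 8.18 and 8.14 on control and 8.08, 8.03 and 8.12 on knockout arrays, again without overlap, with a difference of -0.07 ± 0.028 (SE). The probe ILMN_2723763 read 8.25, 8.21 and 8.27 against 8.22, 8.12 and 8.24, with overlap and a difference of -0.05 ± 0.037 (SE). All 3 Chga probes were lower in the knockout in 3 of 3 pairs of the same replicate number, by unequal amounts. None of the 15 probes of the members was called in the fit of all probes, where 0.0883% of probes were.

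Chgb, which encodes chromogranin B, another granule-forming protein, read 10.40, 10.19 and 10.60 on control and 10.15, 10.17 and 10.43 on knockout arrays. The groups overlapped, with control replicate 2 close to the 2 lowest knockout arrays. Its difference was -0.15 ± 0.12 (SE), 95% interval -0.45 to 0.15 (adjusted p = 0.92, limma). It became -0.052 without control replicate 3, -0.256 without control replicate 2 and -0.242 without knockout replicate 3.

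Ghrl encodes ghrelin, a hormone that stimulates appetite and is made mostly in the stomach but also in the proximal intestine. It read 8.86, 9.17 and 9.04 on control and 8.73, 8.70 and 8.75 on knockout arrays. All knockout values lay below all control values, and the spread was smaller among knockout arrays (SD 0.025) than among control arrays (SD 0.15), which was not tested. The difference was -0.29 ± 0.076 (SE), the most negative of the 10, with a 95% interval of -0.48 to -0.11 (adjusted p = 0.42, limma). Control exceeded knockout 1.23-fold on the deposited scale.

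The dimmer Ghrl probe, ILMN_2598022, read 8.41, 8.34 and 8.41 on control and 8.26, 8.34 and 8.28 on knockout arrays. Its groups did not overlap either, although control and knockout replicate 2 were equal to 2 decimals. The difference was -0.09 ± 0.031 (SE). The lowest value of the table was also subtracted on the unlogged scale and 16 added before logs were taken again, which spreads dim values. The difference of Chga then became -0.43 ± 0.13 (SE, limma adjusted p = 0.52) and that of Ghrl -0.50 ± 0.14 (adjusted p = 0.37). How far dim values spread depends on the constant added, and only 16 was tried. The size of these differences therefore moved by more than 1.5 times with the treatment of the low end of the scale, and neither was called.

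Sct, Cck and Gip encode hormones of the upper small intestine. Sct encodes secretin, which makes the pancreas release bicarbonate, and read 10.70, 10.70 and 10.49 on control and 10.57, 10.44 and 10.45 on knockout arrays. Control replicate 3 lay among the knockout values, and the other control arrays lay above all of them. The difference was -0.15 ± 0.068 (SE), 95% interval -0.31 to 0.02 (adjusted p = 0.75, limma), and it became -0.089 without the pair numbered 2.

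Cck encodes cholecystokinin, which contracts the gallbladder and slows gastric emptying. It read 9.97, 9.87 and 10.24 on control arrays and 9.80, 9.52 and 10.04 on knockout arrays. The groups overlapped because the arrays numbered 3 were high in both, while each knockout array lay below the control array of its own number, by 0.16, 0.34 and 0.20. The difference was -0.24 ± 0.15 (SE), 95% interval -0.61 to 0.14 (adjusted p = 0.87, limma). It became -0.129 when control replicate 3 was left out, and -0.103 and -0.361 when knockout replicates 2 and 3 were left out in turn.

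Gip encodes the glucose-dependent insulinotropic peptide, an incretin that raises insulin release after a meal. It read 8.62, 8.70 and 9.0 on control and 8.51, 8.61 and 8.95 on knockout arrays. The arrays numbered 3 again lay highest in both groups, and the pairs differed by -0.11, -0.10 and -0.04. The difference was -0.08 ± 0.15 (SE), 95% interval -0.44 to 0.27 (adjusted p = 0.98, limma), and it turned to 0.026 without control replicate 3 and to 0.006 without knockout replicate 1. With the low values spread as for Chga and Ghrl it was -0.16 (adjusted p = 0.94).

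Gcg and Nts encode hormones of cells that are most numerous toward the distal intestine. Gcg encodes proglucagon, from which intestinal L cells cut glucagon-like peptides that act on insulin release and mucosal growth. It read 10.57, 10.40 and 10.82 on control and 10.83, 10.45 and 11.22 on knockout arrays. Gcg had the only mean difference above 0.1 in the upward direction, 0.23 ± 0.21 (SE), with a 95% interval of -0.28 to 0.75 (adjusted p = 0.93, limma). Within pairs of the same number the knockout array was higher by 0.26, 0.05 and 0.40. The mean difference became 0.041 without knockout replicate 3, 0.425 without knockout replicate 2, 0.135 without control replicate 2 and 0.153 without the pair numbered 3.

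Nts encodes neurotensin, a peptide that acts on gut motility and fat uptake. It read 7.97, 7.91 and 8.12 on control and 8.0, 7.93 and 8.08 on knockout arrays, close to the bottom of the scale. Both group means were 8.0, and the 95% interval of the difference was -0.16 to 0.16. Its dimmer probe, ILMN_1221615, had a difference of -0.02 ± 0.026 (SE).

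Sst and Tac1 encode peptides that act on neighbouring cells and nerves. Sst encodes somatostatin, which D cells release to inhibit other hormone cells, and read 9.69, 9.71 and 10.65 on control and 9.87, 9.78 and 10.25 on knockout arrays. Control replicate 3 and knockout replicate 3 stood well above the other 4 arrays. The difference of -0.05 ± 0.28 (SE) had the widest interval of the 10, -0.75 to 0.65 (adjusted p = 1.0, limma). It turned to 0.265 without control replicate 3, to 0.042 without knockout replicate 2 and to 0.123 without the pair numbered 3.

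Tac1 encodes the precursor of substance P, a tachykinin found in serotonin-producing enterochromaffin cells as well as in neurons. It read 8.72, 8.95 and 9.12 on control and 8.93, 8.76 and 9.11 on knockout arrays. Both group means were 8.93, with a 95% interval of -0.31 to 0.32 for the difference. The probe ILMN_1219905, made to another transcript record, read between 7.80 and 7.85 on all 6 arrays, at the bottom of the scale.

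**Figure D2:**
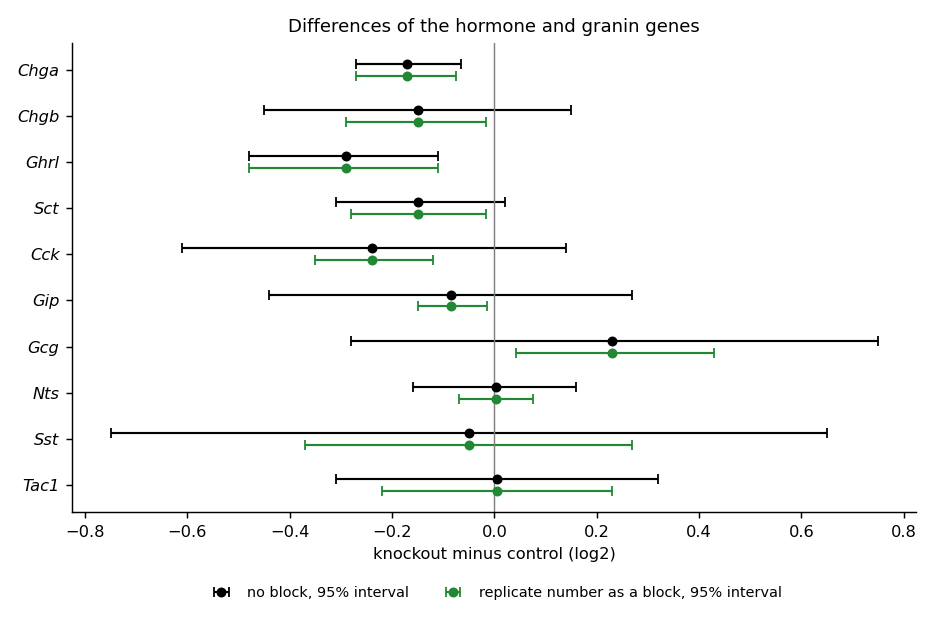
Knockout minus control difference of each gene (log2, horizontal axis) with its 95% interval from limma, without a block (black) and with the replicate number as a block (green). Without the block only the intervals of Chga (-0.27 to -0.07) and Ghrl (-0.48 to -0.11) lie away from 0, and with it those of Chgb, Sct, Cck, Gip and Gcg do so as well; no gene was called in either fit after adjustment over all genes.

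Arrays of the same replicate number were also compared with each other, since both groups carry the numbers 1 to 3. In these same values, deviations from the group means correlated between same-numbered arrays. The labels do not say what a number shares. In 6 of 10 members, Chga, Chgb, Ghrl, Sct, Cck and Gip, the knockout array was lower in 3 of 3 pairs, against 15.1% of all genes. Only Gcg was higher in 3 of 3 pairs, against 15.7% of all genes. Counts differed between the other lists. Of 13 enterocyte markers 6 were lower in 3 of 3 pairs, and of 9 pancreatic genes 6, with 0 and 1 higher. Only 1 of the 9 pancreatic genes lay above the upper quartile, so their pair signs rest mostly on small differences of dim genes. Of 10 epithelial markers 0 were lower, and of 14 Paneth, goblet and tuft markers 1, with 2 and 5 higher. Lower also were 6 of 21 other hormone genes, 2 of 29 granule genes and 4 of 24 transcription factors, with 5, 1 and 4 higher. Nutrient sensors had 2 of 20 lower and 1 higher, and hormone receptors 5 of 19 lower and 0 higher. The dim neuron and glia markers had 1 of 14 lower and 4 higher. Mesenchyme and endothelium markers, also dim, had 2 of 15 lower and 2 higher, and blood and immune markers 1 of 9 lower and 3 higher. The median difference over the 10 members was -0.121 in the pair numbered 1, -0.138 in that numbered 2 and -0.0695 in that numbered 3. Of the 6 members lower in every pair, Chga, Chgb, Ghrl and Cck had the E-box in a promoter window, and Sct and Gip did not. A link between the E-box and these differences was not tested.

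With the replicate number as a block, limma's intervals narrowed for most members and stayed much the same for Chga and Ghrl. At an unadjusted p under 0.05 the blocked fit found 6 members lower, the same 6, against 5.04% of all genes, and 1 higher, Gcg, against 5.88%. The lowest p were 0.0042 for Cck, 0.0069 for Chga and 0.011 for Ghrl. After adjustment over all genes no member was called, where 0.0472% of genes were, and the lowest adjusted p was 0.18, for Cck. The blocked interval was -0.35 to -0.12 for Cck, -0.29 to -0.02 for Chgb, -0.28 to -0.02 for Sct, -0.15 to -0.02 for Gip and 0.04 to 0.43 for Gcg.

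Several members differed by more between replicate numbers than between genotypes, a pattern noticed after the values were seen. In 7 of 10 members, Chgb, Cck, Gip, Gcg, Nts, Sst and Tac1, the arrays numbered 3 were the highest in both groups, against 12.3% of all genes. Chga, Ghrl and Sct did not show this. The share over all genes includes many dim genes, while 9 of 10 members lay above the upper quartile. Counts for brighter marker lists are given below. In a limma fit with group in the model, arrays numbered 3 exceeded the mean of those numbered 1 and 2 by 0.69 ± 0.13 (SE) for Sst, 0.46 ± 0.076 for Gcg, 0.36 ± 0.028 for Gip and 0.35 ± 0.046 for Cck. The difference was 0.29 ± 0.054 for Chgb, 0.27 ± 0.088 for Tac1 and 0.14 ± 0.029 for Nts. For Sct it was -0.13 ± 0.051. These sizes describe the values in which the pattern was noticed and are given with no test.

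**Figure D3:**
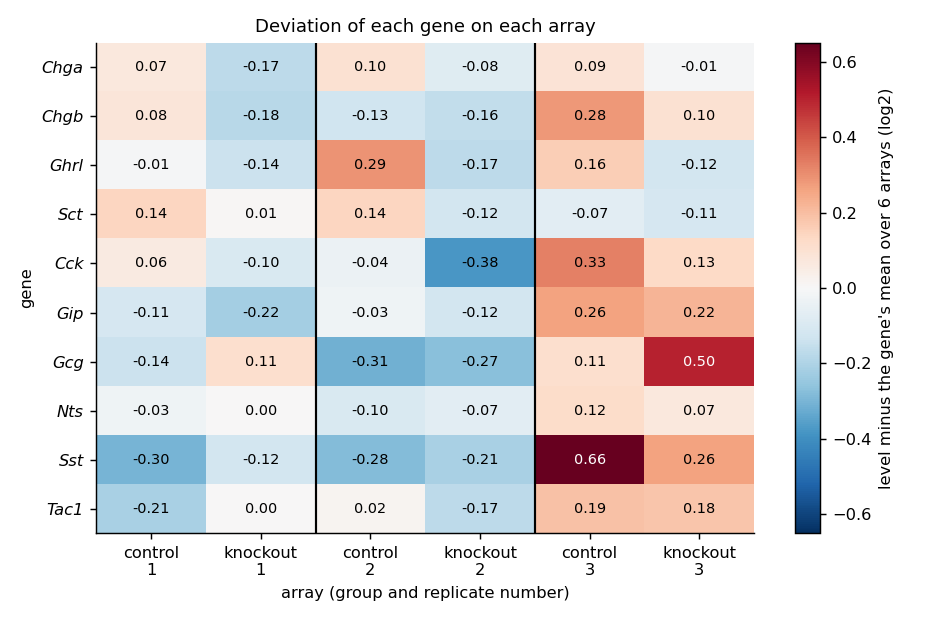
Deviation of each gene from its own mean over the 6 arrays (log2, colour and printed value), with arrays ordered by replicate number and vertical lines between numbers. The columns of replicate 3 hold the highest values of most rows, up to 0.66 for Sst on the control array, while the rows of Chga and Ghrl are higher on control than on knockout arrays.

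Markers of other epithelial lineages moved with the replicate number as well. The arrays numbered 3 were the highest in both groups for 7 of 13 enterocyte markers, for 8 of 14 Paneth, goblet and tuft cell markers and for 4 of 10 general epithelial markers. The share over all genes was 12.3%. Lists of mostly dim genes had 1 of 21 other hormone genes, 4 of 29 granule genes, 2 of 24 transcription factors and 2 of 20 nutrient sensors. Such lists also had 4 of 19 hormone receptors, 1 of 9 pancreatic genes, 2 of 14 neuron and glia, 0 of 15 mesenchyme and 0 of 9 immune markers. The mean over the enterocyte list ran from 10.67 to 11.03 on control and from 10.68 to 10.91 on knockout arrays. None of the enterocyte markers was called between genotypes. The part of these other lineages in the hormone values was not tested.

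The other genes of the enteroendocrine programme were described by lists chosen by function, also with earlier results known. None of their members was called in either direction without or with the replicate block. Of 21 measured genes for other gut peptides and for monoamine synthesis or storage, 7 had a higher and 14 a lower mean, with a median difference of -0.006, and 1 lay above the upper quartile of the scale. That gene, Ddc, which makes serotonin and dopamine from their precursors, read 11.58, 11.21 and 11.44 on control and 11.19, 11.10 and 11.27 on knockout arrays. Its groups overlapped, and it was lower in 3 of 3 pairs, with a difference of -0.22 ± 0.099 (SE; adjusted p = 0.73, limma). Tph1, the rate-limiting enzyme of serotonin synthesis in the gut, read 8.11, 8.10 and 8.05 against 8.03, 8.01 and 8.03, without overlap but near the bottom of the scale (difference -0.06 ± 0.023, adjusted p = 0.65).

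Among 29 measured genes for other granins, prohormone processing and regulated secretion, 13 had a higher and 16 a lower mean, with a median difference of -0.002. None had an unadjusted p under 0.05. Rab3d, a small GTPase of secretory granules, read 10.37 ± 0.086 on control and 10.37 ± 0.041 on knockout arrays (SD, n = 3 each). Rab3a, a related GTPase, differed by 0.06 ± 0.04 (SE), and Vamp2, a membrane fusion protein of granules, by -0.08 ± 0.049. Only 7 of the 29 had means above the upper quartile.

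Of 24 measured transcription factor genes of the enteroendocrine lineage, 12 had a higher and 12 a lower mean, with a median difference of 0.0. Only 6 of the 24 had means above the upper quartile, so the median rests mostly on dim genes with compressed differences. Neurog3, which starts the endocrine programme, read 10.01, 10.04 and 9.92 on control and 10.15, 10.15 and 9.88 on knockout arrays, with overlap. Pdx1, a homeobox factor of the duodenum and pancreas, read 8.88, 9.05 and 8.94 on control and 8.62, 8.51 and 8.62 on knockout arrays, without overlap. Its difference was -0.38 ± 0.054 (SE; adjusted p = 0.14, limma). Sox4, a factor of early secretory progenitors, read 9.82, 9.81 and 9.62 against 10.06, 10.07 and 10.03, also without overlap, with a difference of 0.31 ± 0.057 (adjusted p = 0.26). The forkhead genes Foxa1 and Foxa2, named after their values were seen, were the other factors with an unadjusted p under 0.05, at differences of 0.13 ± 0.034 and 0.07 ± 0.027.

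Nutrient sensors, with which these cells detect food in the gut lumen, had 8 higher and 12 lower means among 20 measured genes (median -0.006). Ffar4, a receptor for long-chain fatty acids, read 8.42 ± 0.06 on control and 8.54 ± 0.08 on knockout arrays, and Ffar3, a receptor for short-chain fatty acids, 8.38 ± 0.18 and 8.22 ± 0.074 (SD, n = 3 each). Slc5a1, the sodium-glucose transporter that also serves enterocytes, read 11.93 ± 0.36 and 12.12 ± 0.30. None of the 20 had an unadjusted p under 0.05 (limma), and only 3 had means above the upper quartile.

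Receptors for the member hormones had 7 higher and 12 lower means among 19 genes (median -0.003), and 1 lay above the upper quartile. That gene, Sort1, which encodes sortilin, a neurotensin-binding sorting receptor, read 11.73 ± 0.095 on control and 11.84 ± 0.027 on knockout arrays (SD, n = 3 each). Glp1r, a receptor for a proglucagon peptide, read 7.87 ± 0.007 and 7.82 ± 0.0062 at the bottom of the scale, where the control and knockout values did not overlap (difference -0.05 ± 0.018, SE; adjusted p = 0.58, limma). Tacr1, the receptor for substance P, read 7.97 and 7.93.

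Markers of pancreatic islet and acinar cells were listed as well, and islet cells share hormones and factors with enteroendocrine cells. Of 9 measured, 7 had a lower mean in the knockout and 1 lay above the upper quartile. That gene, Cela1, an elastase, read 8.48, 8.68 and 8.43 on control and 8.32, 8.39 and 8.24 on knockout arrays, without overlap (difference -0.21 ± 0.075, SE; adjusted p = 0.61, limma). Mafa and Cpa1 differed by -0.07 ± 0.023 and -0.07 ± 0.021 at the bottom of the scale, and Ppy, which encodes pancreatic polypeptide, by -0.04 ± 0.031.

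**Figure D4:**
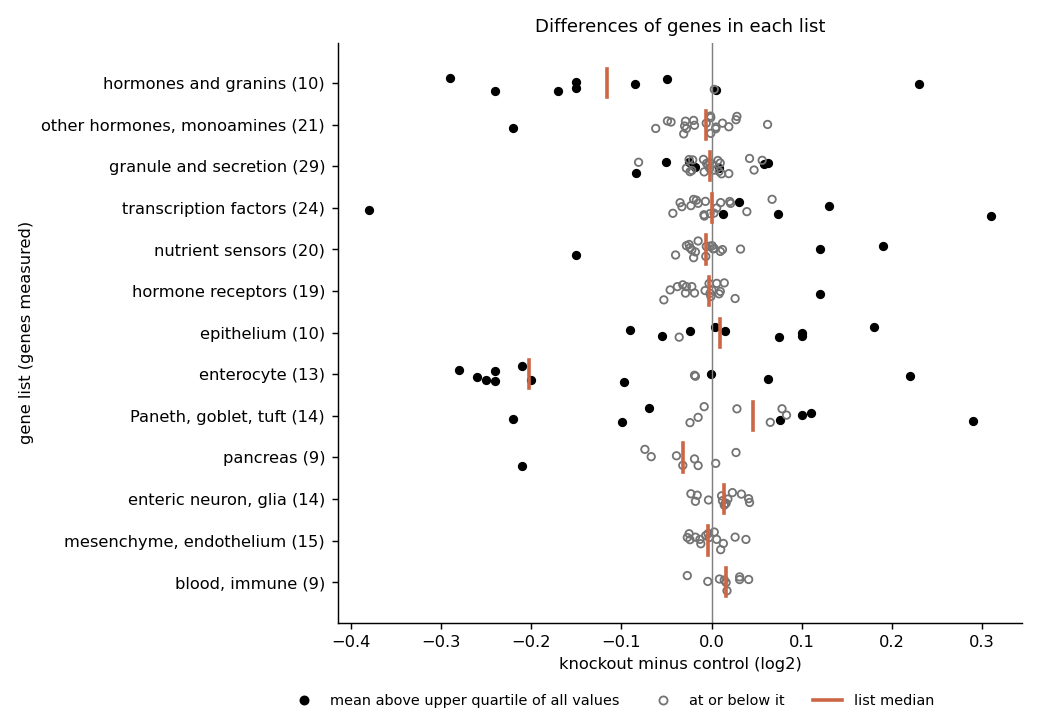
Knockout minus control difference (log2, horizontal axis) of every measured gene in each list, with list medians as orange bars; filled points are genes whose mean lies above the upper quartile of all values and open points those at or below it. The hormones and granins spread from -0.29 (Ghrl) to 0.23 (Gcg) around a median of -0.116, while the dim neuron, mesenchyme and immune markers stay close to 0.

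The profile of the members over the 6 arrays was compared with that of other genes as a description. The mean of the 9 members above the upper quartile was 9.55, 9.57 and 9.82 on control and 9.51, 9.41 and 9.72 on knockout arrays. Among 6960 other genes above the upper quartile, the highest Pearson r with this mean belonged to Rras (r = 0.992), Lrrc66 (r = 0.989) and Prl2c3 (r = 0.985), over 6 arrays each. Rras, which encodes a small GTPase, read 9.64, 9.67 and 9.91 on control and 9.63, 9.56 and 9.82 on knockout arrays. All 3 of these genes were highest on the arrays numbered 3 in both groups, as the mean of the members was. These r describe 6 arrays and were not tested.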

How the data were processed

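The authors deposited 1 table of values for 6 Illumina arrays, on a log2 scale as taken here from the values. Biotinylated cRNA was made for the arrays, per the labels' protocols. Sorted columns of the table agreed to within 0.00187, so distributions had been equalised (quantile normalization). Neither the labels nor the table's header states the log base, the background correction or the software, and no detection calls were used. The number of arrays limits the precision.

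Probes were named through the platform annotation (34885 probes with 1 gene). Of 10 members, 10 matched the GRCm38.p6 gene table by gene number and symbol. The groups were compared in R 4.3.3 by lmFit and eBayes of limma 3.58.1, with no filter on dim genes. P-values were adjusted by Benjamini-Hochberg across the 19057 genes or 45281 probes, with a threshold of 0.05. SEs and 95% intervals are limma's moderated ones. The code was tested on simulated data. Permutation tests were exact and two-sided.

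Both groups carry the replicate numbers 1 to 3, and the numbers were treated as pairs. Deviations from group means of same-numbered arrays correlated over genes at r = 0.349, 0.327 and 0.456. Between arrays of different number r ran from -0.329 to 0.003. Deviations within a group sum to 0, so these r depend on each other and cannot establish what a number shares. The main fit has no block.

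Members and lists were chosen with earlier results of these data known. Named genes are the members and the 3 of most similar profile. The 2 of lowest p and the 2 brightest in each enteroendocrine list and the pancreas list are named too. Marker lists of other cells are given by counts, apart from Fabp1 and Fabp2, which are named for their low readings.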

Additional observations from a re-analysis of the deposited data

How the results depend on the processing

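No member was called under any of the 18 alternatives run, with the lowest adjusted p at 0.18 (limma), and Chga, Chgb, Ghrl, Sct, Cck and Gcg kept their direction in all of them. The median difference over the members ran from -0.201 without knockout replicate 3 to -0.013 without control replicate 3, against an SD of 0.14 between arrays of a group, which is larger than the median itself. The count over all genes was 25, and became 9 with the replicate block, 41 above the upper quartile, 42 with the offset removed, 60 with a variance trend, and 0 to 23 when arrays were left out, including both arrays of a number (added after seeing the data). The sign turned for Nts with the mean of all probes (-0.01) and array weights (-0.005), and for Tac1 with cyclic loess (-0.004). Over left-out arrays the difference ran from -0.209 to -0.129 for Chga, -0.256 to -0.052 for Chgb, -0.378 to -0.209 for Ghrl, -0.216 to -0.089 for Sct, -0.361 to -0.103 for Cck, 0.041 to 0.425 for Gcg, -0.216 to 0.026 for Gip, -0.044 to 0.063 for Nts, -0.211 to 0.265 for Sst and -0.102 to 0.103 for Tac1; the cause was not tested. Nts could not be fitted above the upper quartile. The replicate block changed no other call. The compressed low end limits what dim genes such as Nts can show.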
